A study of Mus musculus with 4 samples.

Results

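The transcripts of 3 cytosolic RNA sensors (Ddx58, Ifih1 and Dhx58), of the STAT factor Stat2, of the interferon regulatory factors Irf9, Irf7 and Irf1, and of the feedback inhibitor Usp18 were followed across the cell classes of the mouse retina. These 8 genes were listed by name, and all of them were among the 20094 genes of the deposited matrix. Retinal cells came from Abca4-/-Rdh8-/- mice on a C57BL/6J background, aged 6 weeks in every group. These mice lack the retinal transporter ABCA4 and the dehydrogenase RDH8, which clear all-trans-retinal, and their photoreceptors are sensitive to bright light. The rolipram group received rolipram, which blocks phosphodiesterase 4, at 2 mg/kg in DMSO, 30 min before white light of 10000 lux for 30 min. The BC11-38 group received BC11-38, which blocks phosphodiesterase 11, at 2 mg/kg with the same vehicle, timing and light. The bleached vehicle group received DMSO and the same light, and the retinae of these 3 groups were collected 1 day later. The unbleached vehicle group received DMSO and no bleaching light. Dark adaptation and pupil dilation are described for bleached mice and not stated for unbleached ones. Each group was 1 library of 4 retinae pooled from 2 mice. No difference below therefore has a replicate or a test across samples, and the 95% intervals cover counting error only.

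RIG-I, the product of Ddx58, and MDA5, the product of Ifih1, recognise foreign or misplaced double-stranded RNA in the cytosol and signal through the mitochondrial adaptor MAVS. LGP2, the product of Dhx58, lacks their signalling domain and modulates them. MAVS signalling activates Irf3 and Irf7, the factors that switch on type I interferon genes. Secreted interferon then binds its receptor and activates STAT2, which acts with IRF9 on the interferon-stimulated response element, or ISRE. Irf1 is classically induced by interferon gamma through a gamma-activated site, or GAS. Usp18 removes the ubiquitin-like modifier ISG15 from proteins and dampens the receptor. The sensors, Stat2, Irf9, Irf7 and Usp18 are themselves interferon-induced, so the pathway feeds on its own output.

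After removal of called doublets the rolipram, BC11-38, bleached vehicle and unbleached vehicle libraries held 7876, 6143, 6807 and 5696 cells. Median depth per cell was 3443, 4102, 4324 and 4585 unique molecular identifiers (UMIs, 1 per captured transcript) in the same order. Of 26451 distinct cell barcodes, 92 occurred in more than 1 library. Xist, the transcript of the inactive X chromosome, was seen in 51.6%, 48.8%, 0.176% and 48.1% of cells, so the bleached vehicle library held almost no cells with Xist while the other libraries held many. Levels below are counts per 1000000 UMIs of the cell class (CPM), which are not scaled by transcript length. In rods, which were 2639, 2294, 2500 and 2376 cells, all 10 rod markers were seen in every library, at 50056, 51654, 39223 and 46799 CPM in sum.

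Start-site regions of genes whose products sense RNA or bind DNA in this pathway are shown where they hold letters that the interferon factors are known to bind. RefSeq promoters of build GRCm38.p6, from 250 bases before to 50 bases after the start, matched 6 of the 8 genes with 8 promoters. Dhx58 and Usp18 had no entry. The ISRE core was searched as GAAA followed by any 2 bases and a second GAAA, and the GAS core as TTCNNNGAA, on both strands. The strings do not overlap each other in any promoter shown, and capitals below mark the match. Each line runs 5′ to 3′ along the gene's own strand.
Ifih1, chr2:62646206-62646505, minus strand: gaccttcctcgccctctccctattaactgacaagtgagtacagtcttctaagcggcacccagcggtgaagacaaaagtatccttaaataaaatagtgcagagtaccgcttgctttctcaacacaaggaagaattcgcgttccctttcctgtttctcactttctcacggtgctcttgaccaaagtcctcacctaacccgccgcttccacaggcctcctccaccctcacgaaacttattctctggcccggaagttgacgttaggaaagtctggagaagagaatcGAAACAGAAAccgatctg
Ddx58, chr4:40239776-40240075, minus strand: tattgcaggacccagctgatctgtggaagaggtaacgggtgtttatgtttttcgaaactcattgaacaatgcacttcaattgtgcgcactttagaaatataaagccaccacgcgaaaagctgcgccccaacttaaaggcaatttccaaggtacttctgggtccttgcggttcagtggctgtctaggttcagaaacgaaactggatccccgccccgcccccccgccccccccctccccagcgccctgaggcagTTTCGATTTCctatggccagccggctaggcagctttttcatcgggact
Stat2, chr10:128270248-128270547, plus strand: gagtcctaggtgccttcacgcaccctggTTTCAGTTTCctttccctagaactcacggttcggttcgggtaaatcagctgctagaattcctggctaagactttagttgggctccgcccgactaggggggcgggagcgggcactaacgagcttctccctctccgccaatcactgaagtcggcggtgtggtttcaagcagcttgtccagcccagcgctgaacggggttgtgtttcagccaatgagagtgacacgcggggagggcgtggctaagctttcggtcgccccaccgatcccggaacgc
Irf1, chr11:53769764-53770063, plus strand: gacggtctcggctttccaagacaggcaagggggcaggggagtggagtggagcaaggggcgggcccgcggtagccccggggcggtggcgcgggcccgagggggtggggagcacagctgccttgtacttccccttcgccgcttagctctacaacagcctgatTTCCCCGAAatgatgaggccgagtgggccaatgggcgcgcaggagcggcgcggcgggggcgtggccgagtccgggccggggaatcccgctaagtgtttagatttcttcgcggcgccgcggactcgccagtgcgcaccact
The ISRE letters stood in 3 of the 8 promoters, those of Ifih1, Ddx58 and Stat2, against 1131 of all 32851 promoters in the table, or 3.44%. The match began 32 bases after the start in Ifih1 and 2 bases after it in Ddx58, and at position -222 from the start in Stat2. The GAS match of Irf1 began at position -90. The GAS letters stood in 1 of the 2 Irf1 promoters and in no other gene of the list, against 2726 of 32851 promoters, or 8.30%. The promoters of Irf7 and Irf9 in the table held neither string, which says only that these letters are not in those windows. A match is a description of sequence and not a measured binding site.

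On the mm10 genome the sensors lie on chromosome 4 (Ddx58, 40203773 to 40239828, minus strand), chromosome 2 (Ifih1, 62595798 to 62646255, minus strand) and chromosome 11 (Dhx58, 100694884 to 100704271, minus strand). Stat2 lies on chromosome 10 (128270559 to 128292849, plus strand), Irf9 on chromosome 14 (55603571 to 55610030, plus strand), Irf7 on chromosome 7 (141262706 to 141266481, minus strand), Irf1 on chromosome 11 (53770014 to 53778374, plus strand) and Usp18 on chromosome 6 (121245906 to 121270917, plus strand). Irf9 overlaps Rnf31 on the same strand. On the other strand, Irf7 overlaps Phrf1, Usp18 overlaps Gm44148, Dhx58 overlaps Dhx58os and Irf1 overlaps Gm17334. Whether counting used strand is not given in the sources used here, so counts of these 5 genes may hold reads of their neighbours. Rnf31 had 54, 52, 130 and 122 UMIs in rods of the rolipram, BC11-38, bleached vehicle and unbleached vehicle libraries, and Phrf1 had 195, 160, 238 and 236. Gm44148 had 0, 1, 1 and 3 UMIs in rods but 34, 9, 89 and 44 in Müller glia, and Dhx58os had 0 in rods of every library. Gm17334 was not used here.

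The classes that carried these transcripts differed. Of the 6 classes with at least 50 cells in each library, endothelial cells held the 8 genes at the highest level in 3 libraries and at the second highest in the bleached vehicle one, with a summed 564, 400, 493 and 455 CPM in rolipram, BC11-38, bleached vehicle and unbleached vehicle retinae. Müller glia, the radial support cells of the retina, had 205, 78.7, 162 and 142 CPM, second to endothelial cells in the drug libraries and below rods in the vehicle libraries. Rods had the widest range between libraries of these classes, with 72.7, 57.0, 714 and 264 CPM. Cones had 25.6, 23.4, 60.7 and 37.4 CPM, bipolar cells 35.3, 24.8, 82.0 and 45.2 CPM, and amacrine cells 29.0, 21.6, 86.7 and 42.9 CPM. In the bleached vehicle library rods therefore stood above endothelial cells, and in both drug libraries they stood far below them.

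**Figure D1:**
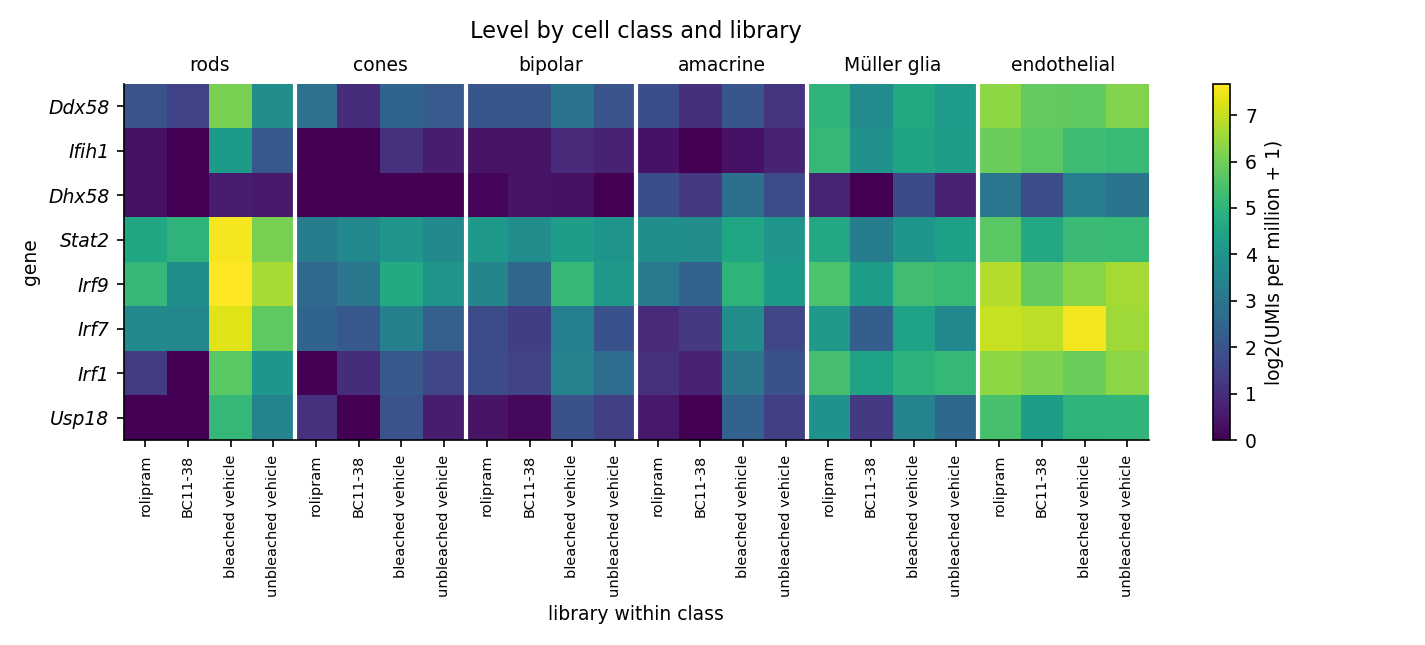
Level of each gene as log2(CPM + 1) in 6 cell classes, with the 4 libraries of a class side by side from rolipram to unbleached vehicle. Endothelial cells are bright in every library, while the rod block is bright in the bleached vehicle library and dark in the drug libraries.

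Among the sensors in rods, Ddx58 had 11, 7, 261 and 53 UMIs in rolipram, BC11-38, bleached vehicle and unbleached vehicle retinae, which are 2.92, 1.93, 67.2 and 12.6 CPM. Bleached vehicle rods stood alone at the top, and the intervals of both drug libraries ended below that of the unbleached one, at 5.22 and 3.97 CPM against a lower end of 9.45 CPM. Ddx58 was 5.32-fold higher in bleached than in unbleached vehicle rods (95% interval 3.95 to 7.30). It was 23-fold lower in rolipram than in bleached vehicle rods (12.7 to 46.7) and 34.9-fold lower in BC11-38 than in bleached vehicle rods (16.7 to 87.6). Ifih1 had 1, 0, 66 and 14 UMIs, and was 5.10-fold higher in bleached than in unbleached vehicle rods (2.83 to 9.83). Against bleached vehicle it was 64.0-fold lower with rolipram, from 1 UMI (11.1 to 2567), and at least 20.6-fold lower with BC11-38, taking 3 UMIs per library as the floor for a count of 0. Dhx58 was scarcely seen in rods, with 1, 0, 2 and 2 UMIs, so no difference was detectable at this depth.

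Stat2 had 86, 112, 726 and 286 UMIs in rolipram, BC11-38, bleached vehicle and unbleached vehicle rods, or 22.8, 30.8, 187 and 68.1 CPM. Irf9, its partner on the ISRE, had 125, 48, 787 and 425 UMIs, or 33.2, 13.2, 203 and 101 CPM. Stat2 was 2.74-fold higher (2.39 to 3.16) and Irf9 2.00-fold higher (1.78 to 2.26) in bleached than in unbleached vehicle rods. Both factors were again highest in the bleached vehicle library, but unlike the sensors they stayed countable in the drug libraries. Against bleached vehicle, Stat2 was 8.19-fold lower with rolipram (6.54 to 10.4) and 6.06-fold lower with BC11-38 (4.96 to 7.47). Irf9 was 6.11-fold lower with rolipram (5.05 to 7.44) and 15.3-fold lower with BC11-38 (11.5 to 21).

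Irf7, the inducible factor that amplifies interferon production, had 44, 40, 606 and 224 UMIs in rolipram, BC11-38, bleached vehicle and unbleached vehicle rods, or 11.7, 11.0, 156 and 53.3 CPM. It was 2.92-fold higher in bleached than in unbleached vehicle rods (2.51 to 3.42), 13.4-fold lower with rolipram than in bleached vehicle (9.83 to 18.6) and 14.2-fold lower with BC11-38 (10.3 to 20.04). Irf1 had 6, 0, 197 and 65 UMIs. It was 3.28-fold higher in bleached than in unbleached vehicle rods (2.46 to 4.41), 31.9-fold lower with rolipram than in bleached vehicle (14.4 to 87.9) and at least 61.4-fold lower with BC11-38. Usp18, the brake of the pathway, had 0, 0, 130 and 41 UMIs. It was 3.43-fold higher in bleached than in unbleached vehicle rods (2.40 to 5.0), at least 42.0-fold lower with rolipram than in bleached vehicle and at least 40.5-fold lower with BC11-38. The sensors, the factors and the brake thus shared 1 order in rods, with bleached vehicle first, unbleached vehicle second and both drug libraries below them, for every gene other than Dhx58.

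**Figure D2:**
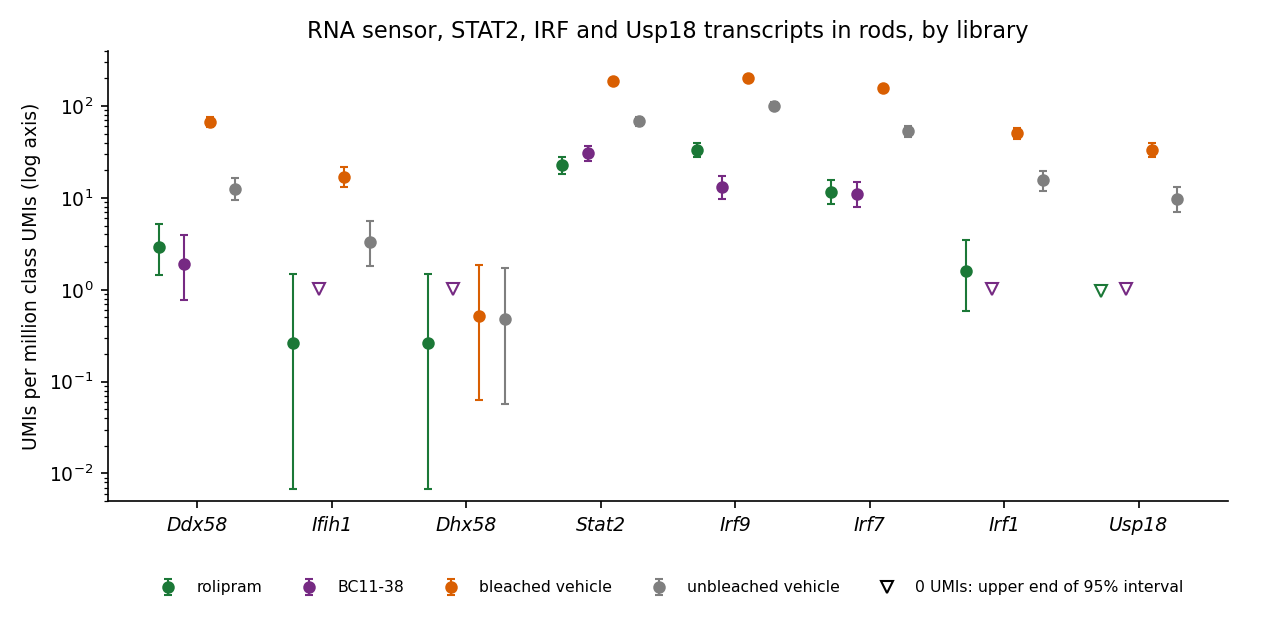
CPM of each gene in rods on a log axis, 1 point per library with its exact 95% Poisson interval; open triangles mark the upper end of the interval where 0 UMIs were seen. Bleached vehicle points are the highest for 7 of 8 genes beyond their intervals, and Dhx58 points overlap.

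Of the 8 genes, 6 had at least 100 UMIs over bleached and unbleached vehicle rods together and were counted: all but Ifih1 and Dhx58. All 6 were at least 2-fold higher in bleached vehicle rods, with a median log2 ratio of 1.63, against 1.43% of all 8590 genes counted and a median of 0.09 over them. Irf9 stood at the limit, and 5 of 6 passed with TMM scaling, which lowered the median of all genes by 0.13 on the log2 scale. With rolipram the same 6 genes were at least 2-fold lower than in bleached vehicle rods, against 2.99% of 8526 genes, with a median log2 ratio of -4.13 against -0.10 over all genes. With BC11-38 the same 6 were lower, against 4.69% of 8386 genes, with a median of -4.53 against -0.15. These medians hold genes at 0 UMIs at their 3-UMI bound. Both drug comparisons share the bleached vehicle library. Irf9 with rolipram and Stat2 with BC11-38 alone reached 100 UMIs in the drug library itself, and Ddx58, Irf1 and Usp18 did not reach it in unbleached vehicle rods. The others were counted through the bleached vehicle library, which favours genes that are high there, so these counts and medians, like those of other classes and lists below, are a description.

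Over all rods, drug libraries were also below the unbleached vehicle library, whose own level differed between kinds of rods, as given below. Stat2, Irf9 and Irf7 reached 100 UMIs there, and with rolipram all 3 were at least 2-fold lower than in unbleached vehicle rods, against 0.549% of 8382 genes. Their folds were 2.98 lower for Stat2 (2.34 to 3.84), 3.05 lower for Irf9 (2.49 to 3.76) and 4.57 lower for Irf7 (3.29 to 6.46). With BC11-38 the same 3 were at least 2-fold lower, against 1.62% of 8264 genes, at 2.21-fold for Stat2 (1.77 to 2.77), 7.66-fold for Irf9 (5.67 to 10.6) and 4.84-fold for Irf7 (3.45 to 6.96). Between the drugs, Irf9 was the 1 of 2 counted genes that was 2-fold higher in rolipram than in BC11-38 rods, against 0.725% of 8133 genes.

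The unbleached vehicle level was itself made of 2 kinds of rods. In that library 587 rods had Y-linked and no Xist UMIs, and 1025 had Xist and no Y-linked UMIs. The 8 genes stood at 405 CPM in the first kind (369 to 444) and 105 CPM in the second (90.2 to 121), a 3.87-fold difference within 1 library (3.25 to 4.61). Each gene other than Dhx58 was higher in the first kind. Stat2 had 101 against 35.3 CPM, Irf9 154 against 42.1 CPM, Irf7 70.5 against 18.8 CPM, and Irf1 33.1 against 3.42 CPM. Ddx58 and Usp18 each had 22 UMIs in the first kind and 4 in the second. The 690 rods with neither kind of UMI, which were shallower, had 366 CPM (332 to 404). Since a library pooled 2 mice, sex and single mice cannot be told apart here. The drug libraries showed no such gap, with 85.2 against 68.5 CPM in rolipram rods, a 1.24-fold difference (0.908 to 1.69), and 65.2 against 55.8 CPM in BC11-38 rods, a 1.17-fold difference (0.833 to 1.63). Among rods with Xist, the unbleached vehicle level of 105 CPM thus stood beside 68.5 CPM with rolipram and 55.8 CPM with BC11-38. Among Y-linked rods, 405 CPM stood beside 85.2 and 65.2 CPM. The step from unbleached vehicle down to the drug libraries was smaller in rods with Xist than over all rods.

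Nearly all sex-called cells of the bleached vehicle library were of the first kind, so the comparison was repeated in Y-linked rods alone. There the 8 genes stood at 651 CPM in bleached and 405 CPM in unbleached vehicle rods, a 1.61-fold difference (1.44 to 1.79). Ddx58 was 3.35-fold higher (2.12 to 5.53) and Irf7 2.06-fold higher (1.61 to 2.67), and these were the 2 of 5 counted genes that passed 2-fold, against 0.862% of all genes counted in these rods that passed in either direction. Stat2 was 1.62-fold higher (1.31 to 2.02), Irf9 1.27-fold higher (1.06 to 1.52) and Irf1 1.14-fold higher (0.759 to 1.73). Usp18, with 54 and 22 UMIs, was 1.41-fold higher (0.846 to 2.44). For all 7 genes that rods express the ratio was smaller than over all rods, and for Irf1 and Usp18 the interval included no difference. The drug ratios kept their direction in Y-linked rods but were smaller than over all rods. In Y-linked rods the 8 genes were 7.64-fold lower with rolipram (6.03 to 9.83) and 9.99-fold lower with BC11-38 (7.77 to 13.1) than in bleached vehicle. Over all rods they stood at 72.7 CPM with rolipram, 57.0 CPM with BC11-38 and 714 CPM in bleached vehicle.

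Rods of the libraries also fell into different clusters, although the 8 genes and the interferon lists were left out of the genes used for clustering. Clusters 0 and 1 held 20.3%, 0.436%, 86.4% and 48.1% of rods in rolipram, BC11-38, bleached vehicle and unbleached vehicle retinae, and clusters 2 and 5 held 78.7%, 99.2%, 12.8% and 51.4%. In clusters 0 and 1 the 8 genes stood at 156 CPM with rolipram, 811 CPM in bleached vehicle and 439 CPM in unbleached vehicle. There 4 of the 6 counted genes were at least 2-fold higher in bleached than in unbleached vehicle rods, against 1.01% of genes that passed in either direction, and Stat2 and Irf9 were not, at log2 ratios of 0.97 and 0.40. The BC11-38 library had 10 rods there, with 0 UMIs of the 8 genes. In clusters 2 and 5 they stood at 52.2, 57.7, 133 and 74.4 CPM in the 4 libraries, a narrower range than in all rods. Within clusters 0 and 1 of the unbleached vehicle library, rods with Y-linked UMIs had 557 CPM and rods with Xist had 189 CPM. The part of rod clusters in the library differences was not tested.

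**Figure D3:**
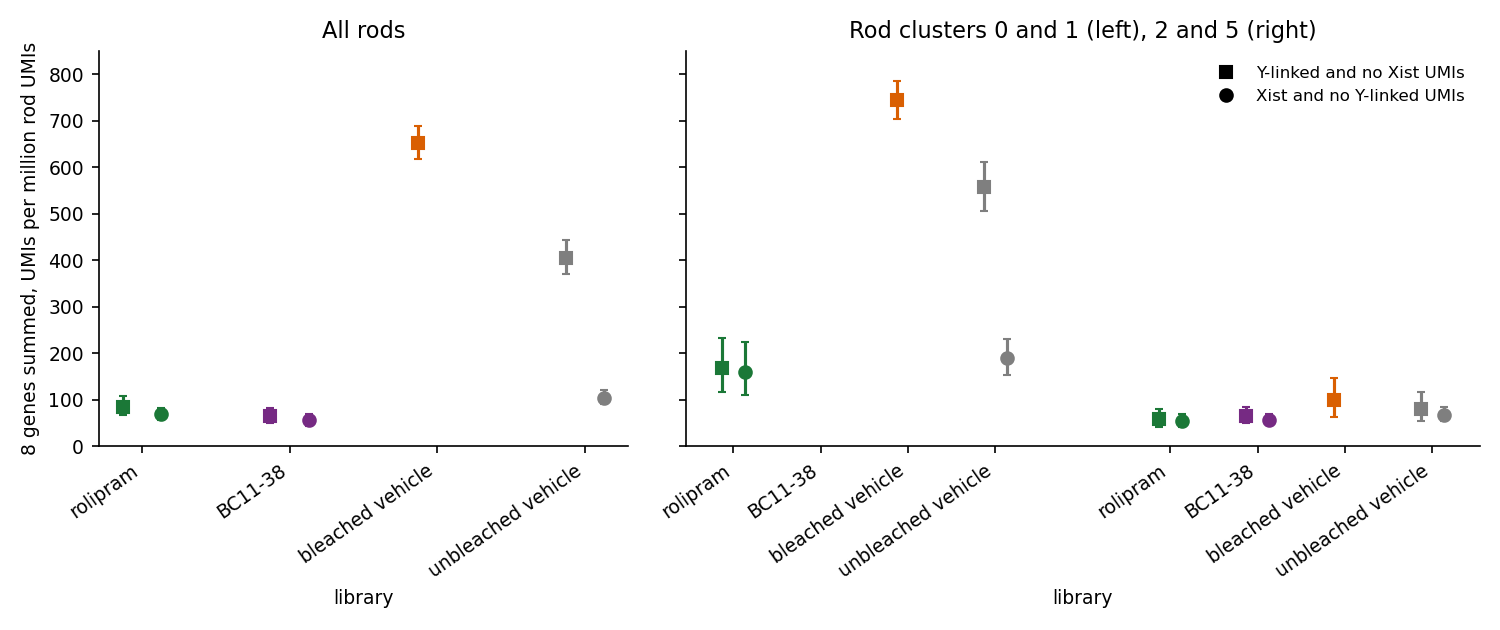
Summed CPM of the 8 genes, in all rods and in 2 pairs of rod clusters, for rods split by sex-linked UMIs (squares have Y-linked but no Xist UMIs, circles the converse); bars are exact 95% Poisson intervals and sets under 50 rods are not drawn. In the unbleached vehicle library the squares stand at 405 and the circles at 105 CPM over all rods, while in the drug libraries they stand at 85.2 and 68.5 (rolipram) and 65.2 and 55.8 CPM (BC11-38).

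Markers of other cells were low in rods of all libraries. The 13 microglial markers summed to 14.3, 12.4, 14.4 and 11.9 CPM in rolipram, BC11-38, bleached vehicle and unbleached vehicle rods, from 9, 6, 11 and 9 of them. Endothelial markers summed to 17.5, 15.7, 33.7 and 18.3 CPM, and markers of neutrophils or monocytes to 0.796, 0, 0.515 and 0 CPM. Müller markers summed to 285, 295, 457 and 271 CPM. Both endothelial and Müller markers were highest in bleached vehicle rods. In that library Müller glia held the 8 genes at 162 CPM, endothelial cells at 493 CPM and rods at 714 CPM. The part of RNA from other cells in the rod levels was not tested.

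At least 1 of the 8 genes was seen in 9.02%, 8.02%, 40.1% and 21.4% of rolipram, BC11-38, bleached vehicle and unbleached vehicle rods, and at least 3 in 0.0379%, 0, 8.84% and 2.27%. After each rod was thinned to 1000 UMIs, which left out 746, 671, 710 and 703 shallower rods, at least 2 genes were seen in 0.475%, 0, 13.1% and 4.24% of rods. The order of the libraries was thus the same at equal depth. Irf7 was seen in 0.951%, 1.17%, 10.4% and 4.36% of thinned rods, against 0.0898%, 0.189%, 1.46% and 0.166% of amacrine cells thinned alike. Free RNA was not measured, and its part in these shares was not tested. Without thinning, Irf7 shares of rods were 1.67%, 1.53%, 13.6% and 5.68%. Median depth was 1214 to 1489 UMIs in rods and 5562.5 to 8548 UMIs in amacrine cells.

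**Figure D4:**
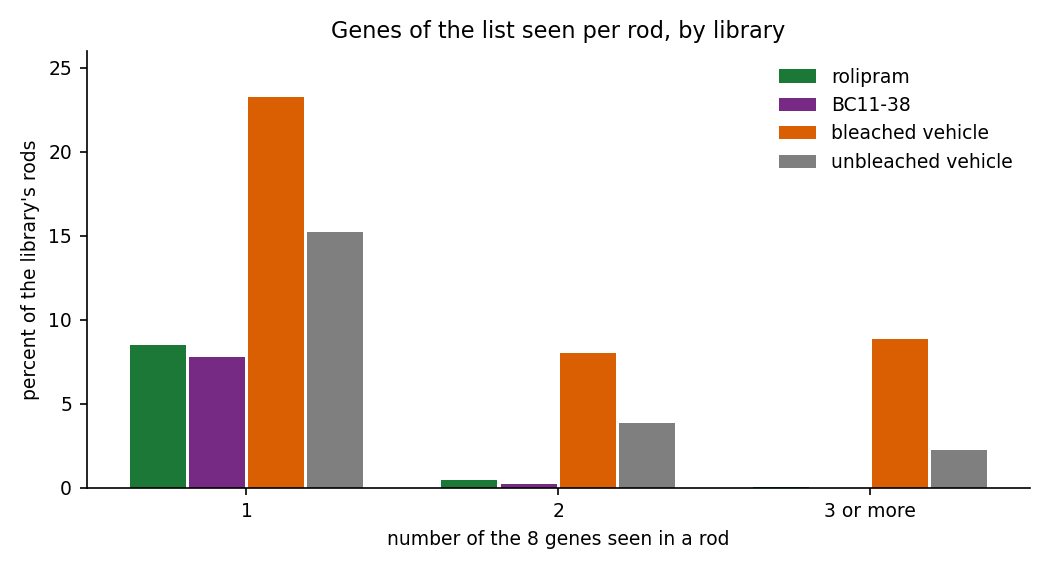
Share of each library's rods in which 1, 2, or 3 or more of the 8 genes were seen, without thinning. Bleached vehicle bars are the highest in each set, and rods with 3 or more genes are 8.84% of that library and 2.27% of the unbleached vehicle one.

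In both vehicle libraries the genes below were seen in a larger share of rods with Irf7 UMIs than of rods without, and the rods with Irf7 were also the deeper ones. Among bleached vehicle rods, 341 had Irf7 UMIs and 2159 had none, with median depths of 1607 and 1322 UMIs. Ddx58 was seen in 27.6% of the rods with Irf7 and in 3.61% of the others, Stat2 in 47.8% and 14.3%, Irf1 in 22.6% and 2.87%, and Usp18 in 17.3% and 2.04%. Of the rods with Stat2 UMIs, 163 had Irf7 and 308 did not. Bst2, which encodes the antiviral membrane protein tetherin, was seen in 41.6% and 8.99%. Unbleached vehicle rods showed the same pattern at a lower frequency, with Ddx58 in 14.8% of 135 rods with Irf7 and in 0.892% of 2241 without, and Stat2 in 38.5% and 6.96%, at median depths of 1892 and 1462 UMIs. In the drug libraries the 44 rolipram and 35 BC11-38 rods with Irf7 held 0 UMIs of Ddx58, Irf1 and Usp18. All rolipram and BC11-38 rods together held 11 and 7 UMIs of Ddx58, 6 and 0 of Irf1, and 0 of Usp18 in both. Such counts are too low to show whether these genes were seen more often in rods with Irf7 there. Stat2 was seen in 4.55% of rolipram rods with Irf7 and 2.93% without, and in 5.71% and 4.43% of BC11-38 rods. A library pools 2 mice, so joint presence in a cell and differences between mice add together in these shares.

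Müller glia gave another picture. These were 1190, 595, 1381 and 586 cells in rolipram, BC11-38, bleached vehicle and unbleached vehicle retinae, with median depths of 5545.5, 6759, 13694 and 11517.5 UMIs. Ddx58 stood at 30.8, 11.9, 24.0 and 17.8 CPM, Ifih1 at 33.3, 13.9, 21.5 and 18.5 CPM, and Stat2 at 23.8, 8.41, 15.4 and 19.5 CPM. Irf9 stood at 44.6, 18.8, 38.6 and 35.7 CPM, Irf1 at 41.6, 20.3, 29.8 and 33.6 CPM, and Usp18 at 14.0, 1.48, 9.81 and 4.99 CPM. Irf7 stood at 16.7, 3.96, 20.5 and 11.1 CPM, and Dhx58 had 5, 0, 46 and 5 UMIs. The BC11-38 library was thus lowest for all 8 genes. The rolipram library had the highest value for 6 of them. Its interval overlapped those of bleached and unbleached vehicle for Irf9, and that of unbleached vehicle for Stat2 and Irf1.

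Of the 7 genes counted in Müller glia, 0 passed 2-fold between bleached and unbleached vehicle, where 2.61% of 11137 genes were higher and 1.76% lower. Dhx58 was not counted, with 46 UMIs in bleached vehicle, 5 in unbleached vehicle and 5 in rolipram Müller glia. With a minimum of 20 UMIs or none it passed 2-fold against both libraries, with bleached vehicle the higher. Of the 7 counted genes, the nearest were Usp18 at 1.97-fold higher (1.38 to 2.88) and Irf7 at 1.86-fold higher (1.46 to 2.38). In Y-linked Müller glia alone these 2 passed, at 2.36-fold for Usp18 (1.39 to 4.31) and 2.24-fold for Irf7 (1.56 to 3.33), where 3.14% of genes passed in either direction. Rolipram against bleached vehicle had 0 of 7 genes past 2-fold, where 8.52% of 11243 genes were higher and 6.27% lower, and the median log2 ratio was 0.48. In Y-linked Müller glia alone it was 0.85, and Usp18 at 2.31-fold (1.65 to 3.18) and Stat2 at 2.07-fold (1.59 to 2.67) passed, where 12.9% of genes passed in either direction. BC11-38 had 4 of 7 genes at least 2-fold lower than bleached vehicle, against 9.47% of 11002 genes, with a median of -1.02. The 4 were Usp18 at 6.61-fold lower (2.98 to 18.2), Irf7 at 5.18-fold lower (3.15 to 9.16), Irf9 at 2.06-fold lower (1.62 to 2.64) and Ddx58 at 2.02-fold lower (1.501 to 2.78).

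The 2 drugs, given at the same dose and time, differed in Müller glia. All 7 counted genes were at least 2-fold higher in rolipram than in BC11-38 Müller glia, against 1.39% of 9402 genes, with a median log2 ratio of 1.38. Each of the 7 had under 100 UMIs in the BC11-38 library itself. They were counted through the rolipram library, which favours genes that are high there, so this count and median are a description. The folds ran from 2.05 for Irf1 (1.60 to 2.66) to 9.41 for Usp18 (4.17 to 26.3), from 97 and 6 UMIs. Usp18 counts may hold reads of Gm44148, which had 34 and 9 UMIs in the same cells. The summed level was 205 CPM with rolipram (195 to 216) and 78.7 CPM with BC11-38 (70.2 to 87.8). Within the rolipram library, Y-linked Müller glia had 268 CPM and Xist ones 167 CPM, a 1.60-fold difference (1.43 to 1.80), and even the lower of these stood above both kinds in the BC11-38 library, at 73.7 and 82.7 CPM. Cluster 21 held 849 of the 1190 rolipram and 558 of the 595 BC11-38 Müller glia, and there the levels were 175 CPM (163 to 187) and 80.0 CPM (71.4 to 89.4). The bleached vehicle library had 27 Müller glia in that cluster, its others being mostly in cluster 10, so the clusters of the drug and bleached vehicle glia were not the same.

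**Figure D5:**
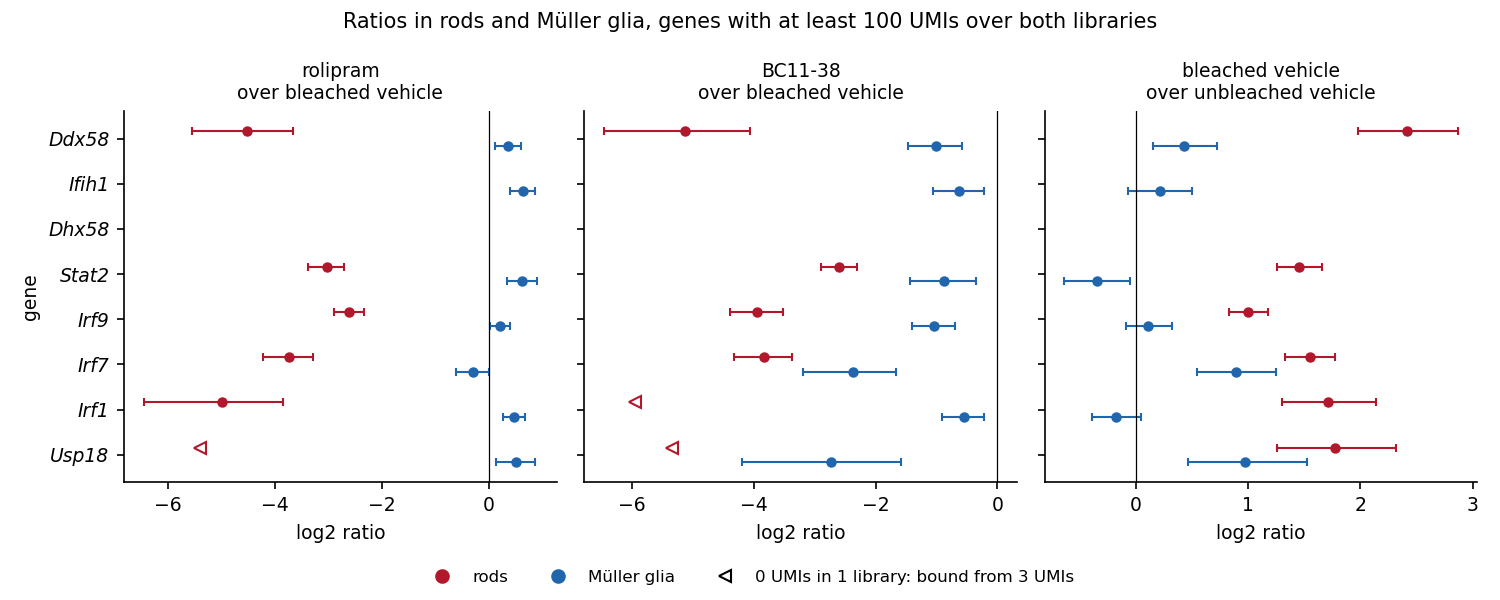
Log2 ratio of each gene with at least 100 UMIs over both libraries, in rods (red) and Müller glia (blue), for each drug over bleached vehicle and for bleached over unbleached vehicle, with exact 95% intervals; open triangles are bounds from 3 UMIs. In the rolipram panel rod ratios run from -2.61 to -5.39 while Müller ratios run from -0.30 to 0.63.

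Bipolar and amacrine cells, the neurons that receive and shape the photoreceptor signal, followed rods in direction at a lower level. In bipolar cells 3 of 5 counted genes were at least 2-fold higher in bleached than in unbleached vehicle, against 0.959% of 10531 genes: Irf7 at 3.19-fold (1.98 to 5.38), Ddx58 at 2.22-fold (1.38 to 3.71) and Irf9 at 2.06-fold (1.68 to 2.55). With rolipram 4 of 5 were at least 2-fold lower than in bleached vehicle bipolar cells, against 1.3% of 10759 genes, and with BC11-38 4 of 5, against 1.82% of 10664 genes. Irf9 was 3.36-fold lower with rolipram (2.68 to 4.26) and 7.15-fold lower with BC11-38 (5.21 to 10.04). Irf7, Irf1 and Ddx58 were the others, at 3.73, 3.85 and 2.16-fold lower with rolipram and 5.32, 4.79 and 2.17-fold lower with BC11-38. Stat2 was the exception for both drugs, at 1.14-fold lower (0.922 to 1.42) and 1.5-fold lower (1.18 to 1.90). In amacrine cells Stat2 and Irf9 alone were counted. Neither passed 2-fold between bleached and unbleached vehicle, where 1.21% of 10430 genes were higher, and Irf9 was 3.84-fold lower with rolipram (2.75 to 5.42) and 7.11-fold lower with BC11-38 (4.77 to 10.9) than in bleached vehicle, against 0.909% and 1.14% of genes. In cones each gene had under 100 UMIs in each comparison. Dhx58 was seen more in amacrine cells than in the other neurons, with 77 UMIs over the 4 libraries.

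Among bipolar cells, amacrine cells and cones the unbleached vehicle library showed a smaller gap than in its rods, with intervals that included no difference. Its Y-linked over Xist ratio for the 8 genes summed was 1.17 in bipolar cells (0.922 to 1.48), 1.19 in amacrine cells (0.981 to 1.44) and 1.03 in cones (0.570 to 1.86). Among Y-linked cells, bleached over unbleached vehicle was 1.70-fold in bipolar cells (1.43 to 2.04), 1.84-fold in amacrine cells (1.54 to 2.21) and 1.85-fold in cones (1.16 to 3.06), beside the 1.61-fold of rods.

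Endothelial cells were few, at 96, 70, 92 and 52 in rolipram, BC11-38, bleached vehicle and unbleached vehicle retinae, and carried all 8 genes in every library. Irf7 was the highest there in the drug and bleached vehicle libraries, at 129, 118, 186 and 94.5 CPM, and was seen in 57.3%, 52.9%, 69.6% and 65.4% of cells. Dhx58 stood at 7.01, 2.49, 8.69 and 6.75 CPM. Of 4 counted genes 0 passed 2-fold between bleached and unbleached vehicle, of 6 counted 0 passed with rolipram against bleached vehicle and of 4 counted 0 passed with BC11-38, where 1.31%, 2.34% and 5.39% of genes passed in either direction. Irf7 came nearest, at 1.97-fold higher in bleached than in unbleached vehicle (1.53 to 2.55).

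Smaller classes gave fewer counts. Microglia held 27 UMIs of the 8 genes in 32 rolipram cells, 78 in 38 bleached vehicle cells and 9 in 14 unbleached vehicle cells, or 124, 168 and 56.8 CPM, and the BC11-38 library held 0 microglia. Astrocytes held 44, 9, 74 and 107 UMIs in 21, 7, 24 and 9 cells, and in the unbleached vehicle library 43 of the 107 UMIs came from 1 cell.

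The rest of the pathway was read in rods from lists of named genes, whose counts stand against the 1.43% of all 8590 genes that were at least 2-fold higher in bleached than in unbleached vehicle rods. Of the sensing partners, Eif2ak2, the RNA-activated kinase PKR, was the 1 of 6 counted that was 2-fold higher in bleached than in unbleached vehicle, at 2.21-fold (1.62 to 3.05). Trim25, the ubiquitin ligase of RIG-I, stood at 2.00-fold (1.66 to 2.41), just under the limit. Mavs stood at 18.6, 17.3, 16.7 and 13.3 CPM in rolipram, BC11-38, bleached vehicle and unbleached vehicle rods, and Irf3 at 76.7, 86.7, 83.4 and 83.8 CPM. The adaptor and the constitutive factor between sensor and interferon were thus near even across libraries. Of 4 counted receptor and kinase genes 0 passed 2-fold, and Ifnar1, the receptor subunit, stood at 25.5, 28.9, 36.0 and 33.1 CPM. Its partner subunit Ifnar2 had 9, 7, 23 and 6 UMIs in rods, too few to be counted. From these low counts it was 4.14-fold higher in bleached than in unbleached vehicle rods (1.64 to 12.4). Against bleached vehicle it was 2.48-fold lower with rolipram (1.11 to 6.09) and 3.07-fold lower with BC11-38 (1.28 to 8.48). Interferon ligand genes were not analysed here.

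Downstream of the receptor, of 5 counted STAT and IRF factors outside the 8, Irf8 alone passed 2-fold, at 2.62-fold higher (1.87 to 3.71), and 3 were at least 2-fold lower with each drug than in bleached vehicle. Among inhibitors Socs1, which blocks Janus kinases, was 5.53-fold higher in bleached than in unbleached vehicle rods (3.61 to 8.78) and Socs3 2.30-fold higher (1.97 to 2.69), the 2 of 4 counted that passed. Antiviral effectors were higher for 8 of 9 counted genes, with Oasl2 at 4.58-fold (3.27 to 6.54), Rtp4 at 4.21-fold (3.05 to 5.91) and Ifit1 at 3.63-fold (2.36 to 5.75). Interferon-induced GTPases were higher for 4 of 4, with Gbp7 at 6.21-fold (4.48 to 8.80) and Irgm1 at 3.51-fold (2.81 to 4.41). Class I antigen presentation was higher for 8 of 9, with the immunoproteasome subunit Psmb8 at 3.27-fold (2.25 to 4.85). With each drug, 8 of 8, 3 of 3 and 5 of 5 counted genes of these last 3 lists were at least 2-fold lower than in bleached vehicle, against 2.99% of genes with rolipram and 4.69% with BC11-38. Of these genes Samhd1 with both drugs and H2-D1 with rolipram alone had at least 100 UMIs in the drug library itself, and the others were counted through the bleached vehicle library.

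The genes whose level was most like the mean of the 8 over 24 sums of class and library were Rtp4, Bst2, Ripk1, Parp14, Gbp3, Irgm1, Irgm2, Rnf213, Tap1 and Psmb9, with Pearson's r of 0.978 to 0.922. The 24 sums come from 4 libraries and 6 classes and are not independent. Of the 10, 8 were in the pathway lists, and Ripk1 and Rnf213 were not.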

How the data were processed

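Single cells of dissociated retinae were profiled with 10x Genomics 3′ chemistry in 4 libraries, 1 per group. Cell Ranger 6.0.1, Seurat 3.2.2 and build mm10 are named in the submitters' processing notes. The deposited values are the natural log of 1 plus UMIs per 10000 of the cell, found from the values themselves. Whole UMIs were recovered from all of them (tolerance 0.01), giving 140410160 UMIs in 26543 cells, and the planned count-based summaries used these. A further group of the study was not analysed here.

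Cells were clustered with scanpy 1.11.5 (2000 variable genes without the 8 genes and the interferon lists, 30 components, 15 neighbours, Leiden resolution 1). A cluster was named from at least 3 markers, each in 15% of its cells and 2-fold over the median of other clusters. Scrublet called 21 doublets, 0 to 0.228% of a library against 4.56 to 6.32% expected, so few of the expected doublets were found. UMIs were summed per class and library. Ratios carry exact conditional Poisson intervals and levels exact Poisson intervals, all at 95% and for counting error only. A gene was counted in a comparison if both libraries together held at least 100 UMIs. With 1 library a group there was no test across samples. The genes named are the 8, up to 4 per pathway list by size of ratio in rods, genes by role, and the 10 most alike; some items are not reported here. The genes and lists were chosen with earlier results of these data known. The ratio and 2-fold steps were tested on simulated sums of rods that held counting error only, with no differences between mice or cells.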

Additional observations from a re-analysis of the deposited data

Results flagged for a closer look

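With scaling by class totals, several genes moved in opposite directions in rods and in other classes, with intervals on opposite sides of no change. The difference between classes was not tested. Stat2 had a log2 ratio of bleached over unbleached vehicle of 1.46 in rods and -0.35 in Müller glia. For rolipram over bleached vehicle, Ddx58 had -4.52 in rods, 0.36 in Müller glia and 0.60 in endothelial cells. Stat2 had -3.03 in rods and 0.63 in Müller glia, and Irf1 had -4.99 and 0.48. Irf9 had -2.61 in rods, 0.21 in Müller glia and 0.48 in endothelial cells, and its Müller value was -0.02 with TMM scaling. Usp18 had -5.39 in rods, a bound from 0 UMIs in rolipram rods, and 0.51 in Müller glia. For rolipram over bleached vehicle in Müller glia, TMM scaling moved the median of all genes by -0.22. The Müller ratios of all these genes move by as much, so the smaller ones depend on the scaling. Whether their intervals then still leave out no change is not given here.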

How the results depend on the processing

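No paired analysis was possible because each group has 1 library. Of 359 recomputed values of single genes, 356 kept their direction, and the others were Irf9 (2) and Irf7 (1) in Müller glia. The 359 include 39 values with a minimum of 20 UMIs and 39 with no minimum. These equal the main values by construction, since the minimum selects genes and does not enter a ratio. Among cells with UMIs of the Y chromosome but without Xist, fewer of the 8 genes were counted in rods than over all rods. Their median log2 ratio was 0.70 over 5 counted genes for bleached over unbleached vehicle, with 2 genes past 2-fold. It was -3.13 for rolipram and -3.46 for BC11-38 over bleached vehicle, over 4 counted genes each. These medians and those over all rods thus do not cover the same genes. In Müller glia with Y-linked and no Xist UMIs, 2 genes passed for bleached over unbleached vehicle. For rolipram over bleached vehicle 2 passed there, with a median of 0.85. In rod clusters 0 and 1 alone the medians were 1.08 for bleached over unbleached vehicle and -3.24 for rolipram over bleached vehicle, and 10 of 12 gene ratios left their intervals over all rods. Stat2 at 0.97 and Irf9 at 0.40 were then under 2-fold for bleached over unbleached vehicle, and for rolipram over bleached vehicle they were -2.50 and -1.36. In clusters 2 and 5, 1 gene was counted for BC11-38 over bleached vehicle, with a ratio of -0.75, and 0 passed. For bleached over unbleached vehicle in Müller glia, 1 gene passed with TMM scaling, with the mean over cells, without the highest doublet scores, and with a minimum of 20 UMIs or none. For rolipram over bleached vehicle, 1 passed with those minimums. The gene that passed through those minimums was Dhx58 in both comparisons. The Müller ratio of Irf7 for bleached over unbleached vehicle was 0.89, and 0.32 where astrocytes joined the class, at resolution 0.5 or with the interferon genes left in clustering. Irf7 was seen in 2.33%, 2.15%, 20.9% and 6.74% of rolipram, BC11-38, bleached vehicle and unbleached vehicle rods thinned to 2000 UMIs, and in 0.951%, 1.17%, 10.4% and 4.36% at 1000 UMIs. TMM moved the median of all genes by -0.13, 0.12 and 0.17 in rods (bleached over unbleached vehicle, then rolipram and BC11-38 over bleached vehicle) and by -0.22 and -0.25 in Müller glia (the drugs in the same order). The cluster subsets and the thinning to 1000 UMIs were chosen after seeing the data. Clusters 2 and 5 gave no value for the other 2 rod comparisons, with no gene counted, clusters 0 and 1 none for BC11-38, with 10 cells, and Müller cluster 21 none against bleached vehicle, with 27 cells. Low depth per rod limits Ifih1 and Dhx58.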
